A study of Mus musculus musculus x M. m. domesticus and Mus musculus musculus x Mus musculus castaneus and Mus musculus domesticus with 42 samples.

Results

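The 8 brain arrays described here came from male mice of 4 groups with 2 males each: the 2 reciprocal F1 hybrids between Mus musculus castaneus and M. m. musculus, and both parental subspecies. They are 8 of the 42 arrays of the series, and they were chosen by the tissue and genotype in the labels. The F1 are written here by their mother: the musculus-mother F1 had a castaneus father and the castaneus-mother F1 a musculus father. Both parents were wild-derived inbred lines, so each subspecies is represented by 1 line, and each group by a pair of its males. The musculus-mother F1 were 53 days old and the castaneus-mother F1 54 days, against 47 days in castaneus and in musculus. Hybrid origin and age therefore cannot be told apart in any difference of the F1 from their parents. The fit and a comparison between crosses also use brains of M. m. domesticus (45 days) and of the reciprocal F1 of musculus and domesticus. Those F1 were 53 days old with a musculus mother and 50 days with a domesticus mother. The gap in age between F1 and parents is thus not the same in the 2 crosses. Total RNA was hybridised to 1-colour Affymetrix GeneChip 430 2.0 arrays, which read each transcript with 1 or several probe sets.

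An F1 hybrid carries 1 allele of every autosomal gene from each parent. If each allele is transcribed in the hybrid as it is in its own subspecies, the F1 level is the mean of the parental levels, which is called additive. A transcript is called dominant when the F1 lies near 1 parent, and transgressive when it lies outside both. The parental mean depends on the scale: the mean of the levels themselves, here the linear midparent, is never below the mean of their logarithms, here the log2 midparent. Sons receive their only X chromosome from the mother, so for X-linked genes the reciprocal F1 carry different alleles. Imprinted genes are transcribed from the allele of 1 parent only where the imprint acts, which can also make reciprocal F1 unlike.

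Signals are the deposited values on a linear scale, and log2 values are log2(signal + 31). Of 45037 probe sets, the 27022 with a mean signal of about 100.2 or more over the brain arrays were tested, with limma fitted across all 14 brain arrays of the series and Benjamini-Hochberg adjustment. A call is an adjusted p under 0.05. Differences are given with their standard error (SE) from this fit, with 2 arrays per group. The labels call the 2 males of a group biological replicates and do not say whether they were littermates, so p-values measure the spread between these males.

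Array quality bears on several results. Log2 values of the replicate arrays correlated at 0.957 to 0.979 across probe sets, and array medians lay between 130 and 168. Genes of neurons and glia were bright on all 8 arrays: Snap25, a synaptic vesicle fusion protein, gave 13223 to 17849 and Mbp, a myelin protein, 15582 to 19170. Alb, the liver's plasma albumin, gave 74 to 415 and Tnp1, a transition protein of sperm nuclei, 5 to 42.

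The second musculus-mother F1 array stood apart in transcripts of the cerebellum. Gabra6, the GABA receptor subunit of cerebellar granule cells, gave 22 there, against 3424 to 6516 on the other 13 brain arrays. Pcp2, a Purkinje cell protein, gave 77 against 3617 to 6475, and Cbln3, which granule cells secrete, gave 53 against 2239 to 4698. All 12 cerebellar genes examined, a list written after the low Gabra6 value was seen, were lowest on that array. Their summed signal was 14293 there, against 45756 to 63204 on the other 3 F1 arrays, 52913 to 59922 in castaneus and 47640 to 55941 in musculus. Results that rest on this array are given below without it where they change.

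A second axis ran across the F1. A probe set of Malat1, a nuclear RNA, gave 8458 and 483 in musculus-mother F1 and 309 and 4367 in castaneus-mother F1. It gave 1313 and 507 in castaneus and 736 and 1196 in musculus. Malat1 has several probe sets, and they did not all show this split. Some did, such as that with 9230 and 1062 in musculus-mother F1 and 962 and 3653 in castaneus-mother F1. Others did not, such as that with 2796 and 2782 in musculus-mother F1 and 2695 and 2540 in castaneus-mother F1. High and low Malat1 refer here to the first probe set, not to Malat1 RNA as a whole. The 2 F1 genotypes thus each held 1 array high and 1 low on that probe set. Their within-group deviations ran against each other (r = -0.47 across probe sets). Between the castaneus-mother F1 and castaneus r was also -0.47, so this value was not particular to the F1. Its sign follows from how the males are numbered. Fits with Malat1 as a covariate, or without the higher Malat1 array of each F1, were added after the data were seen.

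Most transcripts that differed between the parents lay between them in the F1. Castaneus and musculus differed at 1640 probe sets (6.07% of those tested), of which 842 (3.12%) were higher and 798 (2.95%) lower in castaneus. On a scale from 0 at the musculus level to 1 at the castaneus level (log2), the F1 mean lay between 0.25 and 0.75 at 1114 of the 1640 (67.9%), with a median of 0.51. It lay between 0 and 0.25 at 220, between 0.75 and 1 at 249, beyond musculus at 35 and beyond castaneus at 22. The position followed which parent was brighter: the median was 0.65 where castaneus was higher and 0.38 where it was lower. The count of parental differences depended on each parental array, falling to 1084 and 793 without the first and the second castaneus array and to 724 and 730 without the first and the second musculus array.

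The F1 therefore leaned to the brighter parent on the log2 scale and much less on the linear one. The F1 mean lay above the log2 midparent at 1217 of the 1640 (74.2%), with a median of +0.16, and above the linear midparent at 906 (55.2%), with a median of +0.02. At 311 it lay between the 2 midparents. Over all tested probe sets the median distance to the log2 midparent was -0.01, and 47.3% lay above it.

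Called departures were few and depended on the scale. Against the log2 midparent the F1 differed at 146 of the 1640 (8.9%): 135 above (8.23%) and 11 below (0.671%). Against the linear midparent it differed at 10 (0.61%), 1 above and 9 below. Called above the linear or below the log2 midparent, and so beyond both, were 12 (0.732%). These p-values were adjusted among the 1640. Adjusted over all 27022 probe sets, 35 departures from the log2 midparent (0.13%) and 0 from the linear one were called. Without the second castaneus array the linear count was 27 and the count beyond both 27. The linear count was 0 without the second musculus-mother F1, the second castaneus-mother F1 or the first castaneus array. It was 6 and 5 without the first musculus-mother and the first castaneus-mother F1 array, and 2 and 4 without the first and the second musculus array. The count beyond both was 6 without the first castaneus array and 6 without the first musculus array.

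**Figure D1:**
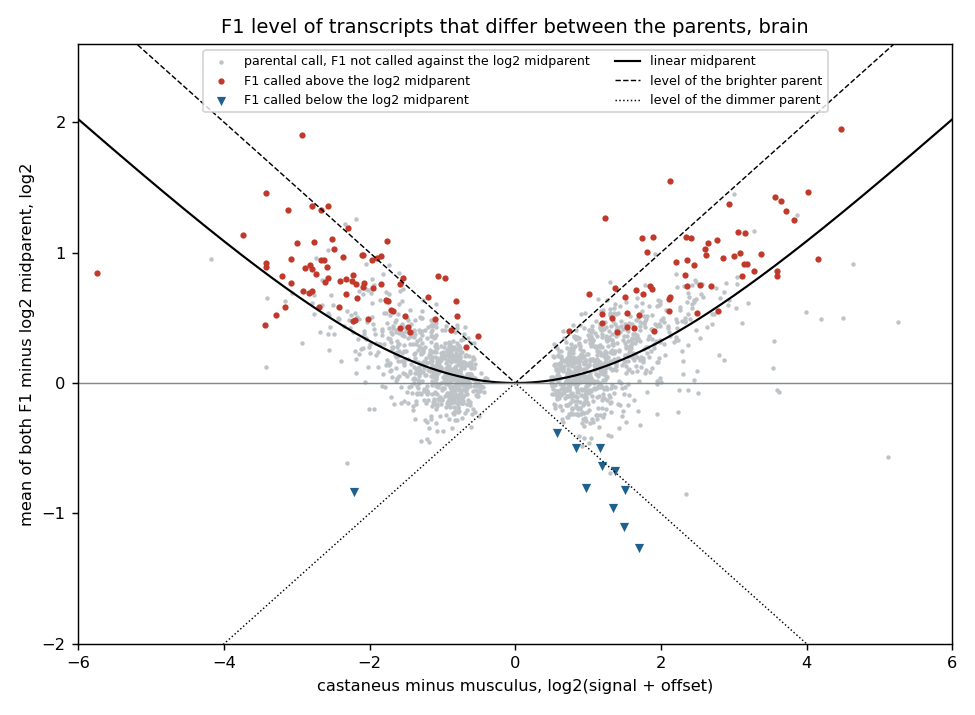
Each point is 1 of the 1640 probe sets that differed between the parents. The x axis is castaneus minus musculus and the y axis the mean of both F1 minus the log2 midparent, both on the log2(signal + 31) scale. Of the 135 calls above (red), 127 lie above the curve of the linear midparent, and 10 of the 11 calls below (blue) lie on the side where castaneus was higher.

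The transcripts below the midparent were mostly higher in castaneus than in musculus, and 4 of their 8 named genes belong to the interferon response. The 11 probe sets comprised 9 of these 8 genes and 2 without a gene symbol, and at 10 of them castaneus was the brighter parent. At 8 the F1 mean lay below even the dimmer parent, and at 10 all 4 F1 arrays lay below the log2 midparent. Interferons are signalling proteins of antiviral defence, and many of the genes they induce act inside cells against viruses.

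Ifitm3, a membrane protein that blocks virus entry through endosomes, gave 764 and 794 in musculus-mother F1 and 888 and 709 in castaneus-mother F1, against 1960 and 1974 in castaneus and 1032 and 943 in musculus. All 4 F1 arrays were below all 4 parental arrays. The difference was -0.80 from the log2 midparent (SE 0.12, adjusted p = 0.0019) and -0.88 from the linear midparent (adjusted p = 0.021). Against castaneus it was -1.29 (adjusted p = 0.00091) and against musculus -0.32 (adjusted p = 0.40). In bulk tissue, fewer cells of a type and less RNA per cell cannot be told apart.

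Ifit3, a cytosolic antiviral protein, gave 124 and 149 in musculus-mother F1 and 114 and 137 in castaneus-mother F1, against 540 and 408 in castaneus and 151 and 182 in musculus. The F1 again lay below every parental array. Its difference from the log2 midparent was -0.96 (SE 0.17, adjusted p = 0.0047) and from the linear one -1.11 (adjusted p = 0.033). Without the second musculus array the parental call on Ifitm3 was lost (F1 minus log2 midparent -0.83). Ifit3 lost it without the first castaneus array (-0.86) and without the first musculus array (-1.02).

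Dusp19, a dual-specificity phosphatase, is not an interferon-response gene on the list used here and showed the greatest departure among those called below. It gave 77 and 76 in musculus-mother F1 and 53 and 82 in castaneus-mother F1, against 645 and 261 in castaneus and 94 and 118 in musculus. Every F1 array was below every parental array, while the castaneus males differed from each other by more than the F1 spread. The difference was -1.27 from the log2 midparent (SE 0.25, adjusted p = 0.0087) and -1.50 from the linear one (adjusted p = 0.034). A second Dusp19 probe set was called as well, at -1.11 from the log2 midparent. The call on the first needed the first castaneus array (-0.96 without it) and both musculus arrays (-1.33 and -1.20 without the first and the second), since the parental call was lost without them.

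Gbp3 and Igtp, both interferon-induced GTPases that act on intracellular pathogens, lay at the musculus level in the F1. Gbp3 gave 219 and 125 in musculus-mother F1 and 153 and 147 in castaneus-mother F1, against 418 and 405 in castaneus and 205 and 129 in musculus. Igtp gave 213 and 233 in musculus-mother F1 and 244 and 198 in castaneus-mother F1, against 513 and 387 in castaneus and 254 and 218 in musculus. The F1 arrays overlapped with musculus in both genes and were clear of castaneus. Differences from the log2 midparent were -0.63 (SE 0.17, adjusted p = 0.043) and -0.50 (SE 0.14, adjusted p = 0.039), and neither passed against the linear midparent (adjusted p = 0.11 and 0.12). These 2 calls were marginal: that on Gbp3 was lost without any array but the first of the musculus-mother F1 (-0.77 to -0.46). That on Igtp was kept without the second castaneus or the first castaneus-mother F1 array, and lost without any other (-0.55 to -0.40).

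B2m, the light chain of all class I antigen-presenting molecules, gave 3528 and 3309 in musculus-mother F1 and 3027 and 3377 in castaneus-mother F1, against 5719 and 4906 in castaneus and 3902 and 3215 in musculus. The F1 were clear of castaneus and overlapped with musculus. The difference was -0.39 from the log2 midparent (SE 0.09, adjusted p = 0.019) and did not pass against the linear one (adjusted p = 0.076). The call was lost without the first castaneus (-0.33), the second musculus (-0.46), the first castaneus-mother F1 (-0.35) or the second musculus-mother F1 array (-0.36). A second B2m probe set gave 3093 and 3600 in musculus-mother F1 and 2996 and 3239 in castaneus-mother F1, against 5454 and 4373 in castaneus and 4535 and 4323 in musculus. It had no parental call, and all 4 F1 arrays lay below all 4 parental arrays.

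Car3, a carbonic anhydrase best known from muscle and fat, was the one called transcript that lay below the midparent and was lower in castaneus. It gave 72 and 97 in musculus-mother F1 and 62 and 88 in castaneus-mother F1, against 56 and 64 in castaneus and 404 and 379 in musculus. The F1 stood at the castaneus level and overlapped with it. The difference was -0.83 from the log2 midparent (SE 0.21, adjusted p = 0.026) and -1.22 from the linear one (adjusted p = 0.034). The log2 call was lost without the first musculus-mother F1 (-0.76, adjusted p = 0.084) or the first castaneus-mother F1 array (-0.75, adjusted p = 0.084).

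Erdr1, a transcript of the pseudoautosomal region, is outside the rule for named genes because its called probe set can cross-hybridise. It gave 1461 and 1332 in musculus-mother F1 and 4687 and 3144 in castaneus-mother F1, against 6439 and 7520 in castaneus and 2271 and 2612 in musculus. The F1 with a musculus mother lay below both parents and the F1 with a castaneus mother between them. The F1 mean was -0.82 from the log2 midparent (SE 0.16, adjusted p = 0.0070), and the difference between the reciprocal F1 did not pass (-1.44, adjusted p = 0.13). A second Erdr1 probe set, not marked for cross-hybridisation, gave 108 and 119 in musculus-mother F1 and 190 and 145 in castaneus-mother F1, against 257 and 245 in castaneus and 133 and 102 in musculus. There the musculus-mother F1 lay within musculus. It had a parental call but none against the log2 midparent (-0.27, adjusted p = 0.27), and its reciprocal difference was -0.45. The 2 unnamed probe sets, 1417185_at and 1436461_at, lay near the musculus level, at 440 to 468 and at 293 to 597 in the F1, against 949 to 1043 and 1162 to 1310 in castaneus and 415 to 438 and 419 to 504 in musculus.

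**Figure D2:**
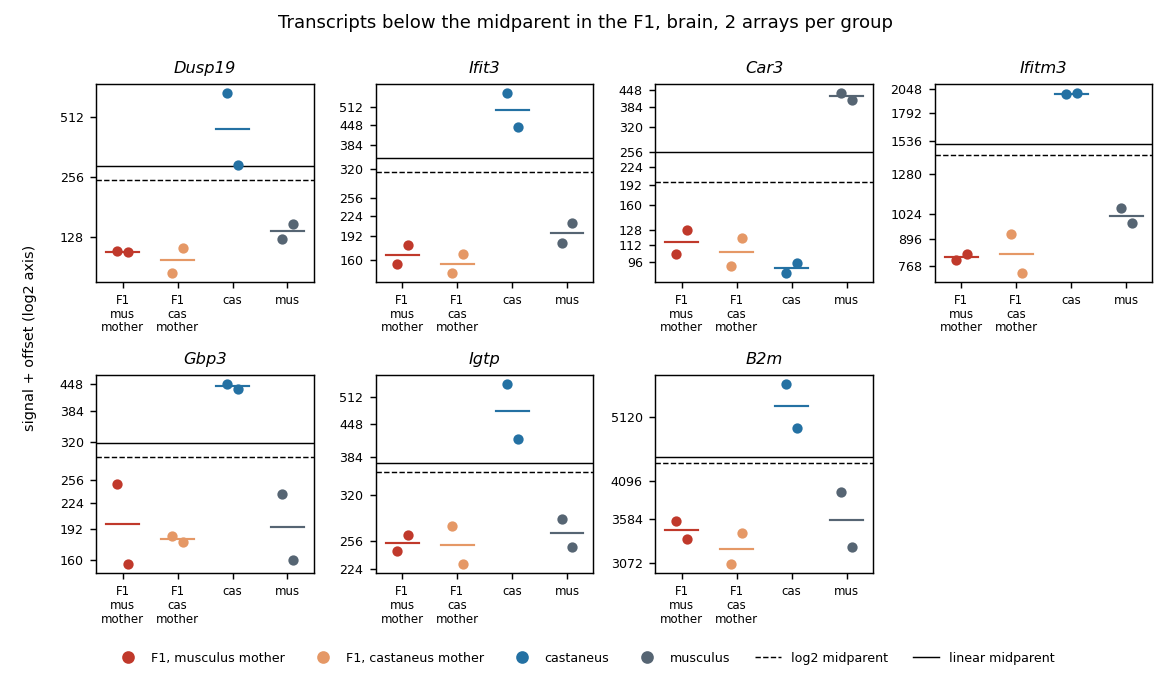
Signals plus 31 (log2 axis) of the 7 named genes below the midparent, for the 2 arrays of each group, with the group mean as a bar. The dashed line is the log2 and the solid line the linear midparent. In 6 of the 7 genes the F1 lie with or below musculus while castaneus is high, and in Car3 they lie with castaneus while musculus is high.

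Over the whole list of interferon-response genes, most members lay below the midparent in the F1 and few passed the test. This list, like the others used here, was chosen with earlier results of these data known. It also holds Ifitm3, Ifit3, Gbp3 and Igtp, described above, so its counts are not independent support. Of 44 genes on the list, 29 were tested. Between the parents, 7 were called higher and 1 lower in castaneus, where 3.12% and 2.95% of all tested probe sets were. The median difference over the 29 was +0.53. In the F1, 27 of the 29 lay below the log2 midparent, against 52.7% of all tested probe sets. Their median was -0.44 against the log2 and -0.52 against the linear midparent, where all tested probe sets had medians of -0.01 and -0.02.

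Of the 29, 4 were called below the log2 midparent, where 0.0407% of all tested probe sets were, and 0 above in limma. At an unadjusted p under 0.05, 14 lay below, where 2.68% of all tested probe sets did, and 0 above, where 3.47% did. The F1 was called below castaneus at 9 (0.252% of all tested) and differed from musculus at 0 (1.25%). Medians were -0.73 against castaneus and -0.29 against musculus, against 0.00 and -0.04 over all tested. In 16 of the 29, all 4 F1 arrays lay below both castaneus arrays, as did 8.54% of all tested probe sets.

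Among members without a call against the midparent, Irf7, the transcription factor that amplifies interferon production, gave 119 and 76 in musculus-mother F1 and 123 and 120 in castaneus-mother F1, against 359 and 207 in castaneus and 170 and 146 in musculus. It fell below castaneus in the F1 by 1.13 (adjusted p = 0.044). Ifit1, an antiviral protein related to Ifit3, gave 98 and 129 in musculus-mother F1 and 83 and 107 in castaneus-mother F1, against 513 and 268 in castaneus and 173 and 111 in musculus. Its F1 arrays were clear of castaneus but not of musculus, and the F1 fell below castaneus by 1.59 (adjusted p = 0.031). Rtp4, an interferon-induced chaperone, gave 78 and 128 in musculus-mother F1 and 117 and 72 in castaneus-mother F1, against 685 and 342 in castaneus and 87 and 57 in musculus. Its F1 level was that of musculus, with -2.02 against castaneus (adjusted p = 0.010) and -0.85 against the log2 midparent (adjusted p = 0.070).

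Members of the list did not all follow this pattern. Ifi27, the member with the greatest parental difference, lay close to the log2 midparent: 654 and 904 in musculus-mother F1 and 870 and 741 in castaneus-mother F1, against 3232 and 2632 in castaneus and 120 and 363 in musculus. A second Ifi27 probe set ran opposite to Malat1 within the F1 and was low on the F1 arrays with high Malat1. It gave 122 and 612 in musculus-mother F1 and 508 and 45 in castaneus-mother F1, against 2068 and 2279 in castaneus and 32 and 33 in musculus. Ifit2 was the one member called lower in castaneus. It gave 288 and 224 in musculus-mother F1 and 258 and 292 in castaneus-mother F1, against 232 and 166 in castaneus and 406 and 493 in musculus, with no call against the midparent (-0.16, adjusted p = 0.52). Samhd1 and Dhx58, named because they were the 2 members above the log2 midparent, lay at +0.13 and +0.05.

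The list did not rest on 1 F1 array, while its castaneus end was uneven. Medians against the log2 midparent were -0.31 and -0.41 on the musculus-mother F1 arrays and -0.58 and -0.41 on the castaneus-mother F1 arrays, against +0.48 and +0.03 on the castaneus arrays and -0.16 and -0.32 on the musculus arrays. Without the first castaneus array the median was -0.31, 26 of 29 lay below, 1 was called below the midparent and 2 were called below castaneus. Without the second, 6 were called below the midparent. Without the first or the second musculus array, 1 and 2 were called. Without the second array of the musculus-mother or of the castaneus-mother F1, 2 were called, and 28 and 27 lay below. Called below castaneus were 5 without the first or the second musculus-mother F1 array or the first castaneus-mother F1 array, and 4 without the second. Microglial markers, 12 of 13 with a probe set, summed to 8831 to 10677 in the F1, against 8486 to 9326 in castaneus and 10619 to 11017 in musculus. Endothelial and mural markers, 13 of 13, summed to 8174 to 9413 in the F1, against 8233 to 8768 in castaneus and 9836 to 10065 in musculus. The part of these cells in the result was not tested.

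**Figure D3:**
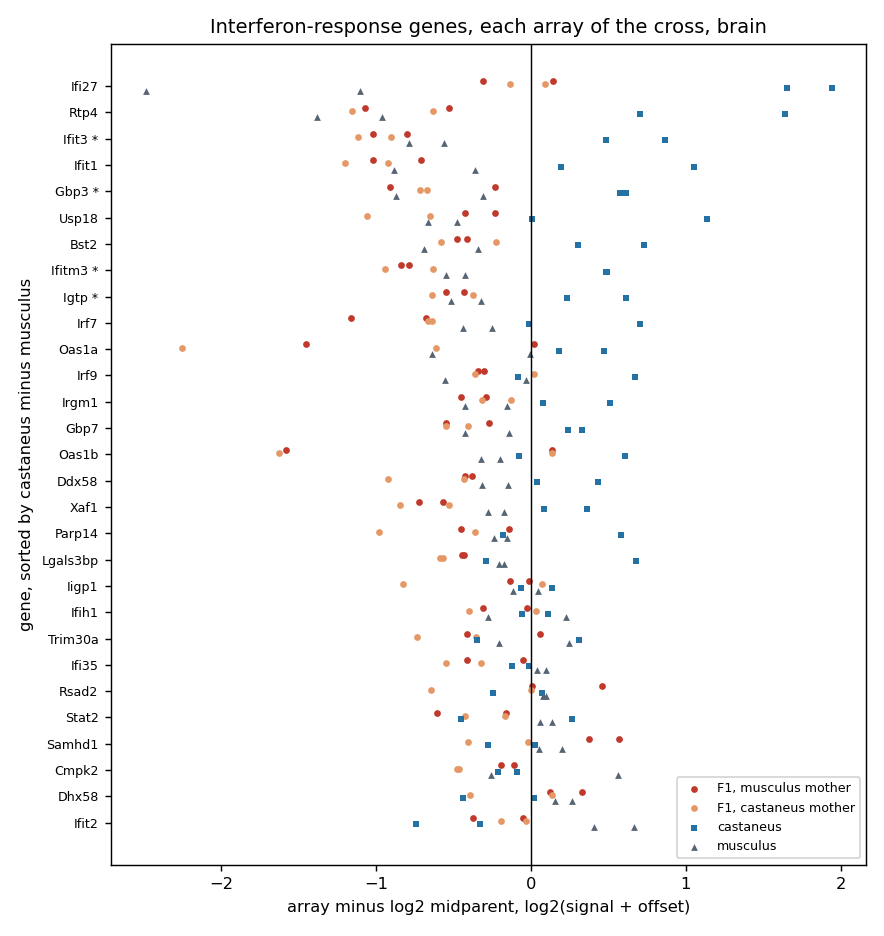
Each row is 1 of the 29 tested interferon-response genes, sorted by castaneus minus musculus, and each point 1 array minus the log2 midparent of the parents, on the log2(signal + 31) scale. Asterisks mark the 4 genes called below the midparent. In the upper rows the F1 points lie on the left with musculus and the castaneus points on the right.

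Genes of antigen presentation, each read by its brightest probe set, lay mostly below the midparent too. Of 11 tested genes, 2 were called higher and 1 lower in castaneus, where 3.12% and 2.95% of all tested probe sets were. In the F1, 9 lay below the log2 midparent (52.7% of all tested), with a median of -0.22. None of these 11 probe sets was called against the midparent, and the B2m probe set called above is the dimmer of its pair. H2-K1, a class I heavy chain, gave 708 and 789 in musculus-mother F1 and 837 and 628 in castaneus-mother F1, against 2073 and 1350 in castaneus and 906 and 1104 in musculus. Its F1 arrays lay below all 4 parental arrays, with -1.15 against castaneus (adjusted p = 0.025), and it had no parental call. H2-D1, another class I heavy chain, gave 667 and 204 in musculus-mother F1 and 206 and 578 in castaneus-mother F1, against 1501 and 1112 in castaneus and 20 and 36 in musculus. This probe set was high on the F1 arrays with high Malat1. The 5 other H2-D1 probe sets had a median parental difference of -2.63, the opposite sign. Psmb10, a subunit of the immunoproteasome, lay near the log2 midparent (+0.09, adjusted p = 0.76): 1154 and 1521 in musculus-mother F1 and 1266 and 849 in castaneus-mother F1, against 690 and 620 in castaneus and 1629 and 2074 in musculus. The class I probe sets carry the suffix that marks possible cross-hybridisation, here with related H2 genes, and are outside the rule for named genes.

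Transcripts above the log2 midparent had strong differences between the parents, and one parent was dim. Among the 135, castaneus was the brighter parent at 60 and musculus at 75. The F1 covered a median share of 0.86 of the way from the dimmer to the brighter parent, from 0.63 to 1.53. All 135 were called different from the dimmer parent and 12 from the brighter one. The share and the calls against the dimmer parent follow in part from choosing probe sets above the midparent. The lack of a call against the brighter parent does not show an equal level. The median parental difference was 2.35, against 1.14 over all 1640, and the median signal of the dimmer parent 60.5, against 209. With so dim a parent, passing the filter depended on the F1 and the other groups. With no filter, 150 were called above and 17 below. Of the 135, 127 also lay above the linear midparent, with a median of +0.37, but 1 was called there.

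Where the gene had other tested probe sets, those had smaller parental differences in the median. Of the 95 probe sets with 1 symbol, 88 had such others. The called ones had a median parental difference of 2.39, and the others, turned to the same sign, one of 0.15. For 12 of the 88 the others exceeded 0.5 of the called difference, and for 27 another probe set had a parental call of the same sign. The other probe sets had a median of +0.06 against the log2 midparent. Whether sequence differences between the subspecies and the probes move these values was not tested.

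Dck, the deoxycytidine kinase that salvages nucleosides, had the greatest distance among named genes higher in castaneus. It gave 697 and 1151 in musculus-mother F1 and 1225 and 597 in castaneus-mother F1, against 1076 and 1552 in castaneus and 57 and 45 in musculus. The F1 overlapped with castaneus and were far above musculus. The difference from the log2 midparent was +1.46 (SE 0.22, adjusted p = 0.0020) and from the linear one +0.37 (adjusted p = 0.61). Of its 2 other probe sets, 1 had a parental call of the same sign, with 406 and 176 in musculus-mother F1 and 166 and 396 in castaneus-mother F1, against 460 and 364 in castaneus and 102 and 124 in musculus. This probe set was high on the F1 arrays with high Malat1, and the first one low there.

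Rab10os, a transcript from the strand opposite Rab10, gave 961 and 835 in musculus-mother F1 and 887 and 1142 in castaneus-mother F1, against 1610 and 1442 in castaneus and 65 and 93 in musculus. All 4 F1 arrays lay below both castaneus arrays, with -0.66 against castaneus (adjusted p = 0.19). The F1 mean was +1.25 from the log2 (SE 0.16, adjusted p = 0.0010) and +0.24 from the linear midparent (adjusted p = 0.66). It was thus nearer the linear midparent than castaneus. Sgip1, an endocytic protein of synapses, gave 520 and 587 in musculus-mother F1 and 551 and 391 in castaneus-mother F1, against 535 and 892 in castaneus and 48 and 11 in musculus. Its F1 arrays overlapped with castaneus (+1.40, SE 0.21, adjusted p = 0.0020). A second Sgip1 probe set differed the other way between the parents, with 1041 and 919 in musculus-mother F1 and 963 and 891 in castaneus-mother F1, against 519 and 450 in castaneus and 1147 and 1062 in musculus. There, too, the F1 lay near the brighter parent.

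B3galt2, a galactosyltransferase, was the named gene whose other probe sets all had a parental call of the same sign. The called one gave 459 and 345 in musculus-mother F1 and 397 and 452 in castaneus-mother F1, against 530 and 346 in castaneus and 53 and 66 in musculus (+1.12, SE 0.24, adjusted p = 0.012). Its 2 others were both called higher in castaneus and had F1 distances of +0.17 and +0.34 from the log2 midparent, neither called. Herc4, a ubiquitin ligase, and Taf15, an RNA-binding protein, were also at or above the castaneus level in the F1 (each +1.12). Herc4 gave 152 and 122 in musculus-mother F1 and 165 and 127 in castaneus-mother F1, against 100 and 146 in castaneus and 4 and 17 in musculus. Taf15 gave 279 and 247 in musculus-mother F1 and 277 and 245 in castaneus-mother F1, against 284 and 162 in castaneus and 44 and 42 in musculus.

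In 4 further named genes musculus was the brighter parent. C1qtnf4, a secreted protein of the C1q family, gave 412 and 431 in musculus-mother F1 and 263 and 274 in castaneus-mother F1, against 14 and 35 in castaneus and 318 and 379 in musculus (+1.36, SE 0.23, adjusted p = 0.0037). Its other probe set read 3840 to 5607 on all 8 arrays with no parental difference (-0.01). Stox2, a transcription factor, gave 376 and 318 in musculus-mother F1 and 186 and 297 in castaneus-mother F1, against 36 and 28 in castaneus and 276 and 279 in musculus (+1.19). Mysm1, a histone H2A deubiquitinase, gave 228 and 221 in musculus-mother F1 and 191 and 143 in castaneus-mother F1, against 9 and 1 in castaneus and 150 and 221 in musculus (+1.36, adjusted p = 0.035). The F1 arrays of Stox2 and Mysm1 overlapped with musculus. In C1qtnf4 the musculus-mother F1 lay above both musculus arrays and the castaneus-mother F1 below both. With the castaneus-mother F1 alone, C1qtnf4 lost its call (+1.06, adjusted p = 0.061). So did Stox2 (+0.94, adjusted p = 0.10), Mysm1 (+1.17, adjusted p = 0.18), B3galt2 (+1.16, adjusted p = 0.0502) and Taf15 (+1.11, adjusted p = 0.061). With the musculus-mother F1 alone, Mysm1 lost its call (+1.55, adjusted p = 0.0504).

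Pisd-ps3, a pseudogene copy of a phosphatidylserine decarboxylase gene, departed most from the log2 midparent (+1.90, SE 0.27, adjusted p = 0.0016). It gave 569 and 376 in musculus-mother F1 and 217 and 278 in castaneus-mother F1, against 8 and 2 in castaneus and 224 and 259 in musculus. Its copies are near-identical, so which of them this probe set reads is uncertain, and its 4 other probe sets had a median F1 distance of +0.05, with 1 of them called too (+1.33). The castaneus signals lie below the offset, which sets this distance: it was +2.29 with 0.5 times the offset and +1.22 with an offset of 100. With an offset of 100, Herc4, whose musculus signals are also below the offset, lay at +0.62, Sgip1 lay at +0.93, C1qtnf4 at +0.90 and Mysm1, which lost its call, at +0.77. None of the 10 named genes was called against the linear midparent (adjusted p 0.12 to 0.66). Leaving out each array in turn kept 8 of the 10 log2 calls throughout. Taf15 lost its parental call without the first castaneus (+1.29), the first musculus (+1.12) or the second musculus array (+1.11), and Mysm1 lost its call without any array but the first castaneus one (+1.24 to +1.48).

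The 1 probe set called above the linear midparent, 1443630_at, has no gene symbol. It gave 376 and 308 in musculus-mother F1 and 35 and 91 in castaneus-mother F1, against 100 and 72 in castaneus and 17 and 20 in musculus. The F1 with a musculus mother exceeded both parents and the F1 with a castaneus mother did not. Their difference was 2.05 (adjusted p = 0.088), so the F1 mean of this probe set averages 2 unlike values.

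**Figure D4:**
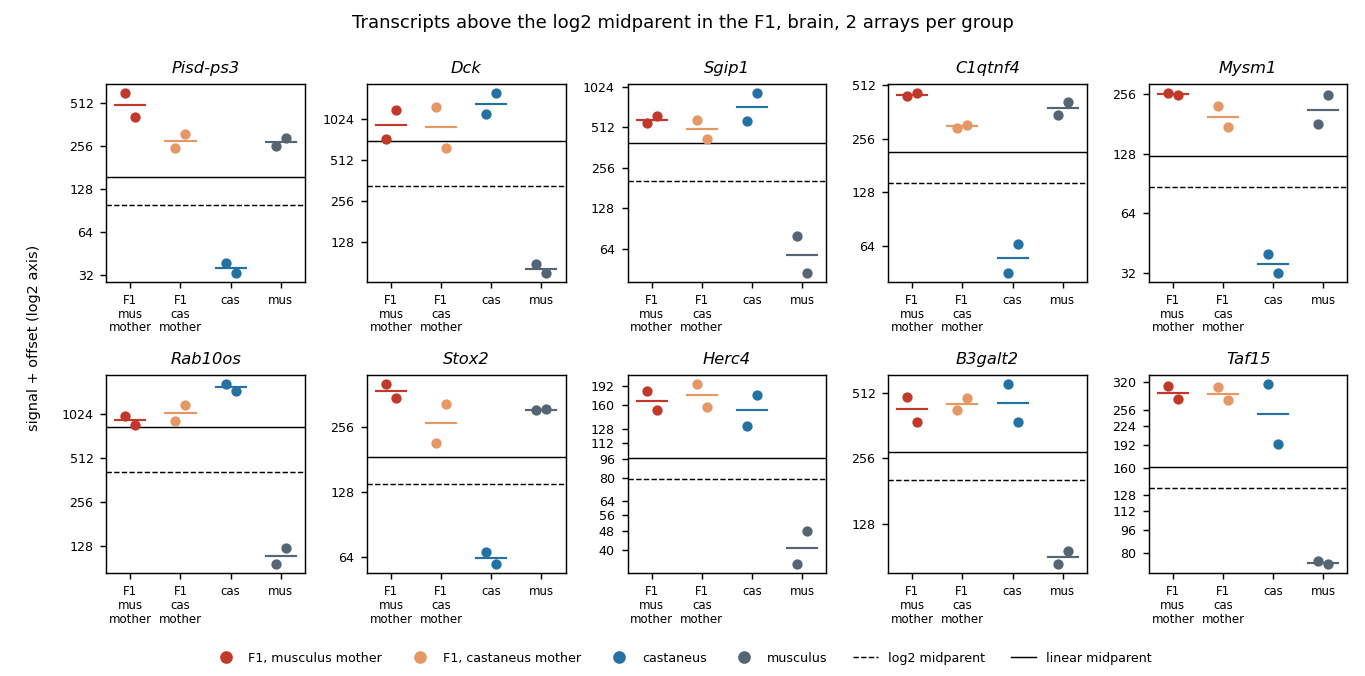
Signals plus 31 (log2 axis) of the 10 named genes with the greatest distance above the log2 midparent, 2 arrays per group, with group means as bars, the log2 midparent dashed and the linear midparent solid. On this axis the F1 lie nearer the brighter than the dimmer parent in each gene. The brighter parent is castaneus in Dck, Sgip1, Rab10os, Herc4, B3galt2 and Taf15 and musculus in Pisd-ps3, C1qtnf4, Mysm1 and Stox2. In Rab10os all F1 arrays lie below both castaneus arrays.

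Additive expression on the log2 scale could be bounded for 61 of the 1640 (3.72%), where the 95% interval of the F1 distance from the log2 midparent lay within 0.25 of the parental difference on either side. For the rest the interval reached beyond this bound, which by itself shows neither additivity nor its absence. The rest include most of the probe sets called against the log2 midparent, where a departure on that scale was called. The bounded genes with the greatest differences included Rps4l, a ribosomal protein gene copy, with 211 and 166 in musculus-mother F1 and 171 and 186 in castaneus-mother F1, against 1122 and 503 in castaneus and 49 and 20 in musculus. All 4 F1 arrays lay between the parents, -0.07 from the log2 midparent (SE 0.28) and -0.99 from the linear one (adjusted p = 0.29). Ifi27, given above, was another, with -0.05 from the log2 (SE 0.31) and -0.97 from the linear midparent (adjusted p = 0.32). For such strong parental differences the 2 midparents lie far apart, and the bound holds on the log2 scale only.

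Xbp1, which drives the unfolded protein response, gave 1363 and 1601 in musculus-mother F1 and 1641 and 1519 in castaneus-mother F1, against 324 and 310 in castaneus and 4269 and 3260 in musculus. It met the additive bound and was also called above the log2 midparent (+0.45, SE 0.12, adjusted p = 0.037), and it lay -0.40 from the linear one (adjusted p = 0.29). The called probe set is 1 of 4, and the others had a median parental difference of -0.23. Ncam1, a neural cell adhesion molecule, averaged close to the midparent (+0.12, SE 0.22) over unlike F1: 80 and 30 with a musculus mother and 227 and 180 with a castaneus mother, against 332 and 489 in castaneus and 6 and 7 in musculus. Its reciprocal difference did not pass (-1.50, adjusted p = 0.51).

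Among the bounded genes, Mid1 and Fam199x were additive as an average of unlike F1. Mid1, a ubiquitin ligase gene at the pseudoautosomal boundary of the X chromosome, gave 1236 and 1008 in musculus-mother F1 and 244 and 148 in castaneus-mother F1, against 1919 and 2595 in castaneus and 36 and 21 in musculus. On the log2 scale each F1 lay between the parents and nearer its father's subspecies, and the difference between them was 2.37 (SE 0.28, adjusted p = 0.023). Its F1 mean was -1.20 from the linear midparent (adjusted p = 0.0499) and had no call against the log2 one (adjusted p = 0.16). Mid1 and 8 of the 11 probe sets above make up the 9 below the linear midparent. Fam199x, an X-linked gene, gave 432 and 232 in musculus-mother F1 and 14 and 66 in castaneus-mother F1, against 13 and 10 in castaneus and 466 and 388 in musculus. Each F1 lay nearer its mother's subspecies, with a difference of 2.40 that did not pass (adjusted p = 0.17). Its 2 other probe sets had no parental call. The list of X-linked genes used next was written by hand and lacks Fam199x, so its counts are not those of the whole X chromosome.

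X-linked transcripts mostly separated the reciprocal sons toward the subspecies of the mother. Of 297 genes from a hand-written list of X-linked genes, measured by 532 probe sets, 18 probe sets of 17 genes had a parental call. That was 3.38%, against 6.07% of all tested probe sets. The F1 difference pointed to the mother at 16 of the 18, the exceptions being Mid1 and Mtm1, a phosphoinositide phosphatase. Median positions were 0.30 in the musculus-mother F1 and 0.84 in the castaneus-mother F1, where 0 is musculus and 1 castaneus. The 1224 other parental calls with 1 symbol had medians of 0.47 and 0.53, and 57.1% of them pointed to the mother. Leaving out single arrays gave 15 to 17 of 18, and without the second musculus-mother F1 array its genotype's median was 0.44.

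Rp2, a GTPase activator named for retinitis pigmentosa, showed this pattern with 442 and 308 in musculus-mother F1 and 82 and 118 in castaneus-mother F1, against 115 and 55 in castaneus and 359 and 344 in musculus. Kdm5c, a histone demethylase, gave 512 and 668 in musculus-mother F1 and 229 and 293 in castaneus-mother F1, against 349 and 262 in castaneus and 627 and 559 in musculus. Ndufb11, a subunit of respiratory complex I, gave 6099 and 7631 in musculus-mother F1 and 4488 and 3935 in castaneus-mother F1, against 3339 and 4246 in castaneus and 6996 and 6303 in musculus. Kdm5c and Ndufb11 were chosen after their values were seen. In each of these genes the sons of musculus mothers overlapped with or exceeded musculus, and those of castaneus mothers lay near castaneus.

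Nhsl2 ran the other way between the parents, with 253 and 149 in musculus-mother F1 and 573 and 660 in castaneus-mother F1, against 482 and 585 in castaneus and 126 and 126 in musculus. Nxt2, a nuclear RNA export factor, gave 1076 and 718 in musculus-mother F1 and 373 and 541 in castaneus-mother F1, against 543 and 395 in castaneus and 1033 and 1050 in musculus. Phf6, a chromatin protein, gave 268 and 221 in musculus-mother F1 and 454 and 322 in castaneus-mother F1, against 372 and 466 in castaneus and 168 and 135 in musculus, and its reciprocal F1 did not overlap. Pja1, a ubiquitin ligase, had overlapping F1, with 310 and 189 in musculus-mother F1 and 156 and 253 in castaneus-mother F1, against 192 and 133 in castaneus and 389 and 391 in musculus. Other probe sets mostly lacked the parental difference: the medians were -0.21 over 4 for Rp2, -0.11 over 6 for Kdm5c and -0.04 over 2 for Phf6. Apart from Mid1, no X-linked reciprocal difference passed on its own (adjusted p = 0.25 for Rp2, 0.42 for Kdm5c, 0.57 for Ndufb11, 0.85 for Nhsl2 and 0.66 for Nxt2). None of the 18 was called against the log2 midparent of both F1 (0 in limma, where 8.9% of all parental calls were).

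**Figure D5:**
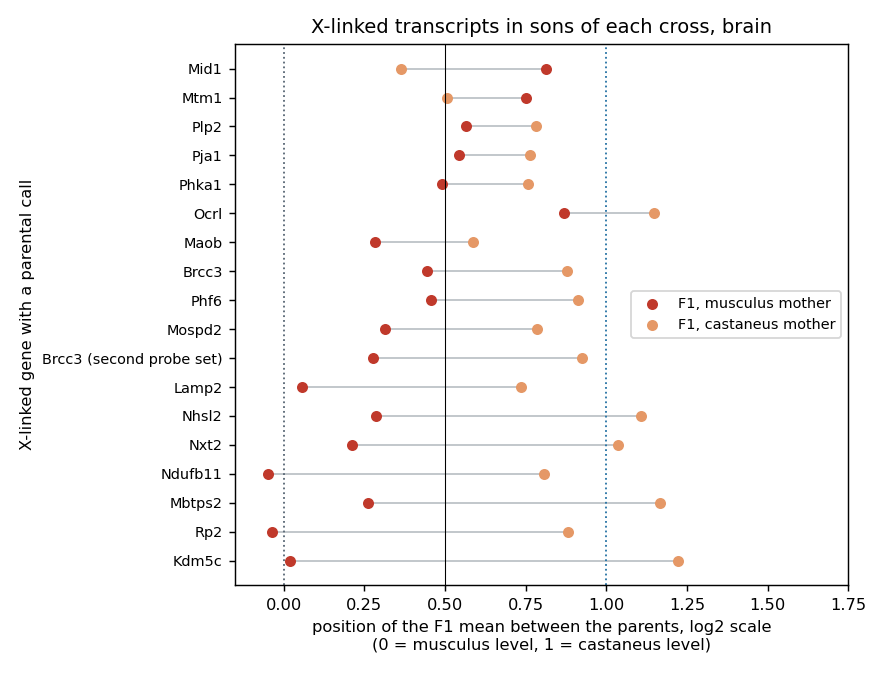
For each of the 18 X-linked probe sets with a parental call, the points show where the mean of each F1 lies between musculus (0) and castaneus (1) on the log2 scale. The castaneus-mother F1 lies to the right of the musculus-mother F1, nearer castaneus, in 16 of the 18 and to the left in Mid1 and Mtm1.

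Over all probe sets, the reciprocal F1 differed at 3 (0.0111%; 1067 at an unadjusted p under 0.05). These were Mid1, the unnamed probe set 1439305_at and 1441905_x_at, which carries several symbols. Of the other two, 1439305_at gave 563 and 436 in musculus-mother F1 and 46 and 69 in castaneus-mother F1, against 49 and 25 in castaneus and 248 and 220 in musculus, and 1441905_x_at gave 493 and 373 in musculus-mother F1 and 60 and 89 in castaneus-mother F1, against 369 and 419 in castaneus and 57 and 99 in musculus. The musculus-mother F1 was higher in all 3. At 1441905_x_at each F1 lay near the level of its father's subspecies. At Mid1 both F1 lay between the parents, each nearer its father's subspecies on the log2 scale. The count depended on single arrays: it was 52 without the first musculus-mother F1 array and 0 without the second, 0 without either castaneus-mother F1 array, and 1 without the first or the second musculus array.

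Among imprinted genes, 39 were tested and 2 had a parental call, where 6.07% of all tested probe sets did, with 0 called against the midparent. Snhg14, a non-coding RNA transcribed from the paternal chromosome, gave 3542 and 1244 in musculus-mother F1 and 13 and 110 in castaneus-mother F1, against 956 and 1239 in castaneus and 77 and 54 in musculus. Each F1 matched or exceeded its father's subspecies at the castaneus end and overlapped with it at the musculus end. The difference between the F1 was 4.76 (SE 0.68) and did not pass (adjusted p = 0.088). A second Snhg14 probe set showed no such split, with 831 and 507 in musculus-mother F1 and 651 and 587 in castaneus-mother F1, against 742 and 785 in castaneus and 466 and 428 in musculus. Igf2, a growth factor on this list, gave 1363 and 1169 in musculus-mother F1 and 1544 and 1151 in castaneus-mother F1, against 2301 and 1951 in castaneus and 1080 and 1149 in musculus. Both F1 lay near musculus, with -0.69 against castaneus (adjusted p = 0.028), -0.24 from the log2 midparent (adjusted p = 0.18) and a reciprocal difference of -0.08.

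Hardly any transcript was called outside both parents, and which were depended on the rule. Among the 25382 probe sets without a parental call, 0 had an F1 mean called outside both parents in limma, when the larger of the 2 p-values was adjusted. When the F1 was instead required to be called against each parent in its own comparison, a rule added after the data were seen, 1 was called. At an unadjusted p under 0.05 there were 122 (0.481%), 51 above and 71 below. The smallest p was 4.37e-05, with adjusted p = 1. Without the first musculus-mother F1 array 9 were called, all below. Among the 1640 with a parental call, 0 were called outside both parents, and 1 at an unadjusted p under 0.05. All 4 F1 arrays lay outside all 4 parental arrays at 589 of the 25382 (2.32%), 275 above and 314 below.

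The 1 called by the added rule, which also had that smallest p, was Slc6a11, the GABA transporter GAT-3 of astrocytes; this gene and the other 3 named here were chosen after their values were seen. It gave 1039 and 990 in musculus-mother F1 and 1219 and 903 in castaneus-mother F1, against 2030 and 1831 in castaneus and 1758 and 1890 in musculus. Every F1 array was below every parental array. The F1 mean was -0.88 from castaneus (adjusted p = 0.0048) and -0.80 from musculus (adjusted p = 0.0086). Zfp207, a zinc finger protein, gave 308 and 282 in musculus-mother F1 and 279 and 318 in castaneus-mother F1, against 393 and 533 in castaneus and 664 and 713 in musculus. Its 5 other probe sets had a median F1 distance of +0.02 from the log2 midparent. Among transcripts above both parents, Wdr3 gave 825 and 798 in musculus-mother F1 and 606 and 707 in castaneus-mother F1, against 539 and 472 in castaneus and 547 and 518 in musculus, and Nipsnap1, a mitochondrial protein, 2393 and 2084 in musculus-mother F1 and 2162 and 2155 in castaneus-mother F1, against 1650 and 1517 in castaneus and 1769 and 1739 in musculus.

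Set against the domesticus cross of the same study, which shares the 2 musculus arrays, the F1 departures differed between crosses at 11 of 27022 probe sets (0.0407%). Of the 146 departures from the log2 midparent, 1 differed between the crosses, a probe set with several symbols, and 74 at an unadjusted p under 0.05. The 135 above had a median of +0.38 in the domesticus cross and the 11 below one of -0.11. All 146 were chosen by their departure in the castaneus cross, so a smaller departure in the domesticus cross can follow from that choice. The 74 has no share over all tested probe sets beside it, so no contrast between the crosses is drawn from it. For the interferon list the medians were -0.44 in the castaneus cross and -0.02 in the domesticus cross, with 0 members called different between them. At 10 of the 11 the castaneus cross had the lower departure, and these were 1 probe set each of Zfp207 and Zyg11b, 3 of Rpn1, 2 of Pisd-ps3 and 3 with several symbols. The 3 of Rpn1 carry the suffix that marks possible cross-hybridisation. They read 1 to 25 across the castaneus cross, against 4065 to 5969 in domesticus. Zyg11b read 15 to 53 there, against 1103 and 1079 in domesticus. For Rpn1 and Zyg11b the F1 lay -0.19 to +0.13 from the log2 midparent in the castaneus cross and +1.33 to +2.89 in the domesticus cross. Zfp207 differed by -1.38 (SE 0.15, adjusted p = 0.0048), with its F1 at -0.86 from the log2 midparent in the castaneus cross and +0.52 in the domesticus cross. For a Pisd-ps3 probe set other than the one described above, the F1 lay at -0.12 in the castaneus cross and +1.06 in the domesticus cross (difference -1.17, adjusted p = 0.0011).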

How the data were processed

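Brain RNA of 14 males, 2 from each of 7 genotypes, was measured in the series, and the 8 arrays of the castaneus cross are reported here. The authors deposited 1 linear intensity for every probe set. The submitters' processing notes name MAS5 and no version. Each array's mean after trimming 2% at both ends lay between 498.3 and 498.6, so the authors had scaled the arrays alike before deposit. MAS5 subtracts mismatch probes, so a sequence difference from the probes can lower a signal. The number of arrays limits the precision.

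The offset of 31 was the 20th percentile of all values, and probe sets dimmer on average than percentile 40 were left out. Log2 differences on that scale understate changes of dim transcripts. One model with genotype as factor (limma 3.58.1, R 4.3.3, lmFit, eBayes with an intensity trend) was fitted over the 14 arrays, with 7 residual degrees of freedom, and tests are two-sided. The parental difference is castaneus minus musculus. F1 minus log2 midparent is a contrast of this fit, and its linear counterpart uses the delta method. Both were adjusted among parental calls. The linear test is not independent of that selection. Transgressive probe sets needed an F1 mean outside both parents, with the larger of the 2 p-values. The procedure was tested on simulated data.

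Genes were named only from probe sets with exactly 1 of the platform's symbols (34945 of 45037, with 932 having several and 9160 none) and no _x_at suffix, 1 per gene: the 10 greatest departures above and the 6 below the log2 midparent, the 8 greatest above the linear and below the log2 midparent, the 6 greatest bounded additive and the 6 greatest X-linked differences, and list members as examples. A list's gene was read by its brightest probe set. Erdr1, H2-K1, H2-D1, Samhd1, Kdm5c, Ndufb11, Mtm1, Fam199x by mother, the genes that differ between crosses, Snhg14 and the genes nearest to transgressive were chosen after their values were seen. The members and lists were chosen with earlier results of these data known. X-linked genes were listed by hand, since the annotation used here gives no positions, and no sequences are shown for the same reason.

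Same-numbered males did not all deviate together: correlations of their deviations ranged from -0.47 to 0.36 between the 4 groups and reached 0.56 between the 7 groups of the fit. The labels name no shared litter or day, so the numbers are not taken to pair the males. Alternatives were other offsets, no filter, quantile normalization, only the 8 arrays, each F1 alone, adjustment over all probe sets, the replicate block, each array left out, and, added after the data were seen, 2 that concern Malat1 and 1 other rule for transgressive calls.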

Additional observations from a re-analysis of the deposited data

Results flagged for a closer look

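Among 28 named genes examined, 1 differed between the reciprocal F1 when the difference itself was tested. Mid1 was higher in the musculus-mother F1 by 2.37 on the log2 scale (SE 0.28, adjusted p = 0.023 in limma), with 1236 and 1008 in musculus-mother F1 and 244 and 148 in castaneus-mother F1, against 1919 and 2595 in castaneus and 36 and 21 in musculus. None of the 28 had a lone F1 array far from the other 3.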

How the results depend on the processing

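Of the counts, only those named here moved by more than 1.5 times. With an offset of 100, 7 reciprocal differences were called. With no filter, the linear count was 18, the count beyond both midparents 20 and the reciprocal count 5. With only the 8 arrays of the cross, 230 departures from the log2 midparent and 0 reciprocal differences were called. The musculus-mother F1 alone gave 6 departures from the linear midparent and the castaneus-mother F1 alone 64 from the log2 midparent. Adjusted over all tested probe sets, 35 log2 departures, 0 linear departures and 1 beyond both were called. Malat1 as a covariate gave 17 linear departures, 19 beyond both and 7 reciprocal differences. Calls against each parent in its own comparison gave 1 transgressive probe set, below. Without the higher Malat1 array of each F1, 96 log2 departures, 8 transgressive probe sets (all below) and 26 reciprocal differences were called.

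Leaving out 1 array at a time gave 724 to 1565 parental differences, 116 to 195 log2 departures, 0 to 27 linear departures, 6 to 27 beyond both, 0 to 9 transgressive calls and 0 to 52 reciprocal differences. With the replicate block, 1854 parental differences, 181 log2 and 13 linear departures, 17 beyond both, 0 transgressive calls and 3 reciprocal differences were called, and the numbers are not known to pair the males. All 17 named departures kept their direction in every setting run. Dck, Rab10os, Sgip1 and Pisd-ps3 kept their calls in all 19, while Mysm1 lost its call in 13, Gbp3 and Igtp in 12 and B2m in 9. The cause of these shifts was not tested. With 2 males per group, F1 at another age than the parents and 1 array without cerebellar signal, small departures could not be detected.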

Other observations

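Genes of the brain's own cell types and functions stayed close to the midparent in the F1, with 0 members called against it by limma in each list (8.9% of all parental calls were called, and parental calls in these lists were few). Medians of F1 minus log2 midparent were +0.06 over 15 neuronal genes, -0.07 over 12 astrocyte genes, -0.04 over 16 myelin and oligodendrocyte genes, -0.10 over 10 microglial genes and -0.04 over 12 genes of endothelium and mural cells, against -0.01 over all tested probe sets. Neuropeptides had a median of +0.08 over 23 genes, glutamate and GABA receptors +0.08 over 32, heat shock proteins +0.06 over 26 and nuclear-encoded subunits of the respiratory chain 0.00 over 63. Circadian clock genes had one of -0.09 over 19. At an unadjusted p under 0.05, members above or below the midparent numbered 0 to 3 in each of these lists.

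Immediate early genes, which neurons switch on with activity, had a median of +0.11 over 20 genes in the castaneus cross and +0.37 in the domesticus cross. Genes of the glucocorticoid response had +0.08 over 14 genes in the castaneus cross and +0.24 in the domesticus cross. Both crosses share the musculus arrays, and the difference between their medians was not tested.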
